A study of Mus musculus with 6 samples.

Results

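The machinery that takes a cell from G1 into S phase and copies its DNA was examined as a set of 38 genes in embryonic hindbrain with and without Hoxb1. The set holds cyclins, cyclin-dependent kinases, their inhibitors, E2F and retinoblastoma-family genes, and the genes that license and carry out replication. Its members were all probe sets, the groups of probes that report 1 transcript, whose single gene symbol in the platform annotation is one of these 38. They came to 74 of the 22626 probe sets tested, with every gene measured by at least 1 of them, and 12393 genes are named on the array in all. Of the 38 genes, 17 are cell-cycle regulators, with 32 probe sets, and 21 are replication genes and proliferation markers, with 42. Total RNA came from rhombomere 4 of E10.5 mouse embryos, dissected and pooled from several embryos per sample, per the series' design text. The tissue also took in part of the branchial arches beside it, per the labels. One group was wild type and the other Hoxb1 mutant; allele and strain were not given in the sources used here. Each group held 3 samples, stated to be independent biological replicates, and each was hybridised to 1 Affymetrix array. Intensities are on a linear scale, and values of single arrays follow in the order of replicates 1 to 3. Differences are mutant minus wild type of log2(intensity + 16), a scale that makes changes of dim probe sets look smaller, and errors after ± are SDs of 3 arrays.

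In G1, D-type cyclins bind Cdk4 or Cdk6 and phosphorylate the retinoblastoma protein and its relatives, which releases E2F transcription factors. E2F then drives cyclin E, cyclin A and many replication genes, and Cdk inhibitors hold this step back when cells leave the cycle. In the hindbrain at this stage, progenitors at the ventricle cycle while neurons that have left the cycle, the facial motor neurons of rhombomere 4 among them, gather towards the outer side.

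Most of these genes gave bright signals in both groups, and no difference between the groups passed the test. At an adjusted limma p under 0.05, 0 of the 74 probe sets differed, and the lowest adjusted p among them was 0.833. Over all 22626 probe sets the count was also 0, and it was 2 to 4 under 5 of 16 alternative settings. The lowest adjusted limma p over the array was 0.0695. Hoxb1, the mutated gene, had that value, which it shared with other probe sets, so it did not pass in this fit either. At an unadjusted limma p under 0.05, 1 of the 74 was higher in mutants and 1 was lower, shares of 1.35% each. Over all probe sets tested 425 (1.88%) were higher and 878 (3.88%) lower at that level, or 5.76% in all, against 2 of 74 here, so the set held no larger share than the array as a whole. That split of higher and lower over the array depended on scaling, with 652 higher and 700 lower after quantile normalization and 667 and 566 after centring on array medians. The fitted differences of the members ran from -0.69 to 0.42, with a median of 0.06, against -0.02 over all probe sets. The 95% interval of the difference lay within 1 log2 unit of zero on both sides for 71 of the 74 probe sets, and within 0.5 log2 units for 50. For the other 24, differences beyond 0.5 log2 units lay inside the interval. The members' median standard error was 0.13, against 0.16 over all probe sets. In pooled tissue, fewer cells of a type and less RNA per cell cannot be told apart.

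**Figure D1:**
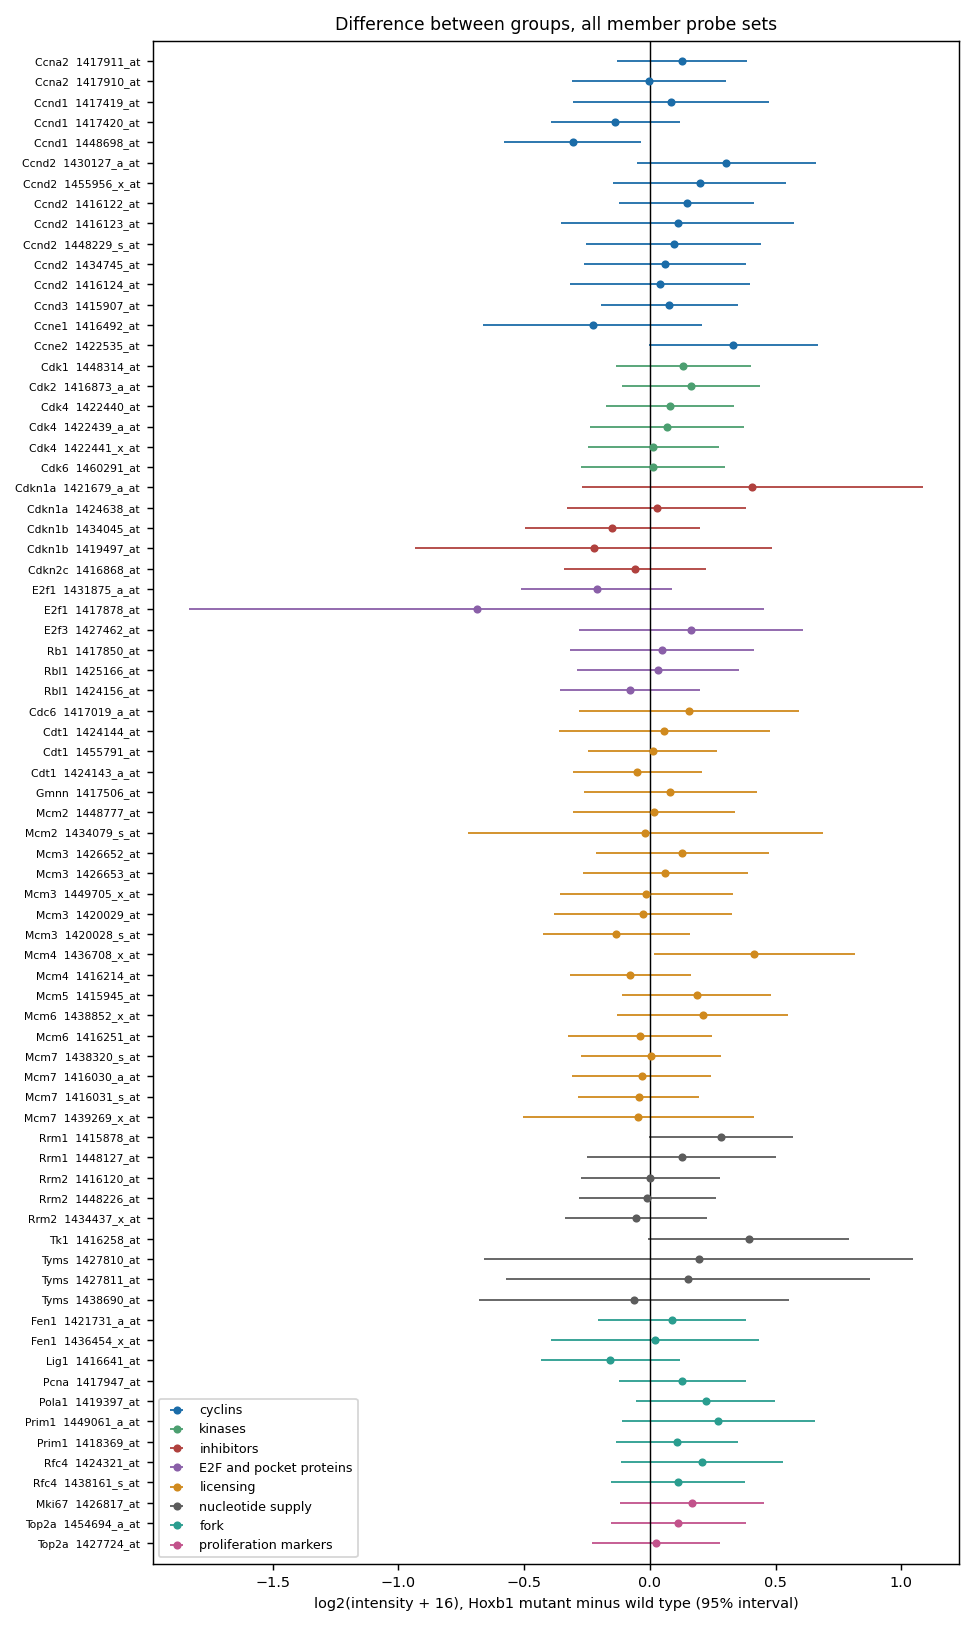
Difference between groups for the 74 probe sets of the 38 genes, as log2(intensity + 16) in Hoxb1 mutant minus wild type (horizontal axis) with 95% intervals from the limma fit, coloured by role. The interval excludes zero for 1 probe set of Ccnd1, on the lower side, and 1 of Mcm4, on the higher side, and the widest interval is that of the dimmer E2f1 probe set.

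Mean levels leaned to the higher side in mutants, as they did for the brightest 10% of all probe sets. A higher mutant mean was found in 50 of the 74 probe sets, 67.6%, against 45.8% of all probe sets tested. The count ran from 41, without wild-type replicates 2 and 3, the arrays of high 18S rRNA control signal, to 60 of 74 after centring on array medians, which also took the median over all probe sets from -0.02 to 0.03. It was 46 with quantile normalization, 45 with array weights and 43 with the 18S covariate. Of the 74, 37 were among the brightest 10% of all probe sets, and 24 of these 37 (64.9%) had a higher mutant mean. Among the brightest 10% of all probe sets 64.1% had a higher mutant mean. A wider range of brightness takes probe sets with every array above the 95th percentile of the bacterial controls, described below. There the share was 67.7% of 65 member probe sets, against 47.1% of 15431 in all. Every mutant array lay above every wild-type array in 8 of the 74 probe sets and below in 4. Those counts are 10.8% and 5.41% of the members, where 4.88% and 7.08% of all probe sets tested were separated in that direction. Among the brightest 10% of all probe sets the shares were 10.2% higher and 5.17% lower. For the 37 member probe sets in that range they were 16.2% (6) higher and 10.8% (4) lower. The part of this brightness offset in the members' values was not tested.

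E2F-type motifs were frequent in the promoters of the member genes. The genes were listed by their roles, and E2F drives many replication genes, so this frequency is not independent of the choice of genes. E2F factors bind a GC-rich core that follows a run of T, and RefSeq promoter windows (GRCm38.p6, 250 bases before to 50 after each annotated start) were searched for 4 such motifs, TTTGGCGC, TTTCCCGC, TTTCGCGC and TTTGCCGC, on both strands. A window was found by symbol for 31 of the 38 genes, 39 windows in all. A motif stood in 12 of these windows, 30.8%, against 2.27% of all 32851 windows of the same length. Member windows were richer in G and C, at a median of 62% against 52.7%. Among windows of at least 50% G and C the shares were 33.3% of 33 and 3.25% of 19938. Other G1/S and replication genes, a list of 90 described below, held a motif in 24 of 83 windows (28.9%), and mitotic genes in 0 of 24. A match shows that the letters are present, not that a factor binds there.

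**Figure D2:**
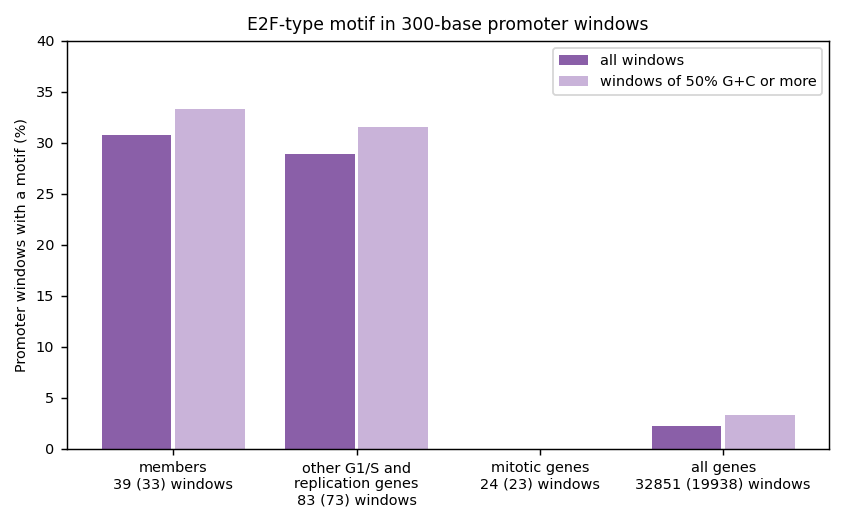
Share of 300-base RefSeq promoter windows with an E2F-type motif on either strand, in percent (vertical axis), for the 38 genes, the other G1/S and replication genes, mitotic genes and all genes. Dark bars take all windows and pale bars those of at least 50% G and C; the members stand at 30.8% and all genes at 2.27%.

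The 12 genes with a motif were Mcm3, Mcm5, Mcm6, Mcm7, Cdc6, Cdt1, Cdk1, Cdk2, E2f3, Rbl1, Lig1 and Pola1, and 4 of them held more than 1. Mcm6, a subunit of the replicative helicase, held 3, 2 of which overlap. Its 250 bases before the start are shown as the window with the most motifs, and that of Tk1 is shown because Tk1 had the largest log2 difference of any gene's brightest probe set and holds none of these letters. The 44-base stretches of 6 other genes are shown to compare what surrounds the motif. Sequences are RefSeq's, GRCm38.p6, on the gene's strand, with the motif in capitals; GCGGGAAA, GCGCGAAA and GCGCCAAA are motifs of the other strand. In Mcm5 a further motif, GCGCCAAA, overlaps the one marked.
Mcm6, chr1:128359706-128359955, minus strand: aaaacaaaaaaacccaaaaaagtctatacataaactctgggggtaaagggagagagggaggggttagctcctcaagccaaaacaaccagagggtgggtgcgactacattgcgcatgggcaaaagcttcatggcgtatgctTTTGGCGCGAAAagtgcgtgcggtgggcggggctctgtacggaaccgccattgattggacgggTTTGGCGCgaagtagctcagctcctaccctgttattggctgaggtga
Tk1, chr11:117826015-117826264, minus strand: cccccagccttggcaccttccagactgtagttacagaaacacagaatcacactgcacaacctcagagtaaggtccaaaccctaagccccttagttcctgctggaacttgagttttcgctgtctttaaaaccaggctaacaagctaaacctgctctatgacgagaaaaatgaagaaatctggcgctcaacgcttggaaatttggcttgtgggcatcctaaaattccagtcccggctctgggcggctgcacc
Mcm7, chr5:138172023-138172066, minus strand: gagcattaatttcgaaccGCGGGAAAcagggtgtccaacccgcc
Mcm5, chr8:75109338-75109381, plus strand: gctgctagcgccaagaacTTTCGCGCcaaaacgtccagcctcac
Cdk1, chr10:69353018-69353061, minus strand: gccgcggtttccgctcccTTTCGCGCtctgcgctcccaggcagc
Cdk2, chr10:128705166-128705209, minus strand: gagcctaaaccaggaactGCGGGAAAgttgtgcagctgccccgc
Cdc6, chr11:98907995-98908038, plus strand: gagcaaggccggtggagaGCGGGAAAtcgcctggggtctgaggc
Pola1, chrX:93632268-93632311, minus strand: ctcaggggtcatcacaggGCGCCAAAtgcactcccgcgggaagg
In these 6 stretches the motif begins between 131 and 165 bases before the annotated start. Positions varied more over all member windows, where the 17 motifs began from 165 bases before to 38 bases after it. Of the 17, 12 lay wholly before the start. The brightest probe sets of the 12 genes that hold a motif had a median log2 difference of 0.07 and ran from -0.16 to 0.22. For the 19 genes with a window and no motif the median was 0.02 and the range -0.23 to 0.39.

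The D-type cyclins, which carry growth signals to the cell cycle, lay on different sides of wild type. The brightest of 3 probe sets of Ccnd1, cyclin D1 (1448698_at), gave 4025, 4068 and 4506 on the wild-type arrays against 3584, 3431 and 3162 on the mutant ones. Every mutant array was below every wild-type array, at a log2 difference of -0.31 (SE 0.11), a 95% interval of -0.58 to -0.03 and an adjusted limma p of 0.833. Its second probe set (1417420_at) gave 3022, 2768 and 2828 on the wild-type arrays against 2651, 2699.5 and 2478 on the mutant ones, again without overlap, with a difference of -0.14 (SE 0.11). A further probe set of Ccnd1 (1417419_at) did not follow them. It gave 1440.0, 1387 and 1466 on the wild-type arrays against 1879, 1474 and 1259 on the mutant ones, with mutant replicate 1 highest of all 6 arrays and mutant replicate 3 lowest, a difference of 0.08 (SE 0.16) that turned to -0.07 without mutant replicate 1. The unadjusted limma p of the brightest probe set was 0.0326. It was under 0.05 in 7 of 16 alternative settings, and without single arrays it was 0.0548, 0.0566 and 0.0884 for wild-type replicates 1 to 3 and 0.0323, 0.0729 and 0.0996 for mutant replicates 1 to 3.

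Ccnd2, cyclin D2, was measured by 7 probe sets, all with a higher mean in mutants. That count rested on single arrays: it was 4 of 7 without wild-type replicate 1, where the median difference of the 7 went from 0.11 to 0.0092, 6 without wild-type replicate 3 and 5 without mutant replicate 2. With the 18S signal as a covariate the median was 0.24. Their log2 differences ran from 0.04 to 0.30, and in each of them the arrays of the groups overlapped. The brightest (1416122_at) gave 4815, 5031 and 5373 on the wild-type arrays against 5968, 5292 and 5592 on the mutant ones, with mutant replicate 2 below wild-type replicate 3, and a log2 difference of 0.15 (SE 0.11). The largest difference was that of 1430127_a_at, which gave 3765, 3464 and 4808 on the wild-type arrays against 5099, 4806 and 4837 on the mutant ones; wild-type replicate 3 reached the mutant level there, and the 95% interval was -0.05 to 0.66. Ccnd3, cyclin D3, gave 1999.7, 1991 and 1847 on the wild-type arrays against 2038, 1909.6 and 2227 on the mutant ones, a difference of 0.08 (SE 0.11) with mutant replicate 2 inside the wild-type range.

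The E-type cyclins, partners of Cdk2 at the start of S phase, had differences of opposite sign. Ccne2 (1422535_at) gave 453, 407 and 338 on the wild-type arrays against 489.5, 542 and 482 on the mutant ones. Every mutant array was higher, at a log2 difference of 0.33 (SE 0.14) and a 95% interval of -0.0028 to 0.67. The difference was 0.22 without wild-type replicate 3, 0.18 with the 18S covariate and 0.15 without both wild-type arrays of high 18S signal, at an unadjusted limma p of 0.142, 0.391 and 0.448. Ccne1 (1416492_at) gave 566, 615 and 736 on the wild-type arrays against 465, 496 and 682 on the mutant ones, with mutant replicate 3 inside the wild-type range and a difference of -0.23 (SE 0.18). Ccna2, cyclin A2, which acts in S phase and on into mitosis, gave 2977, 3175 and 2922 on the wild-type arrays against 3199, 3208 and 3524 on the mutant ones with its brighter probe set (1417911_at). Those groups did not overlap, yet the difference was 0.13 (SE 0.11), and that of its other probe set was -0.0034 (SE 0.13).

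**Figure D3:**
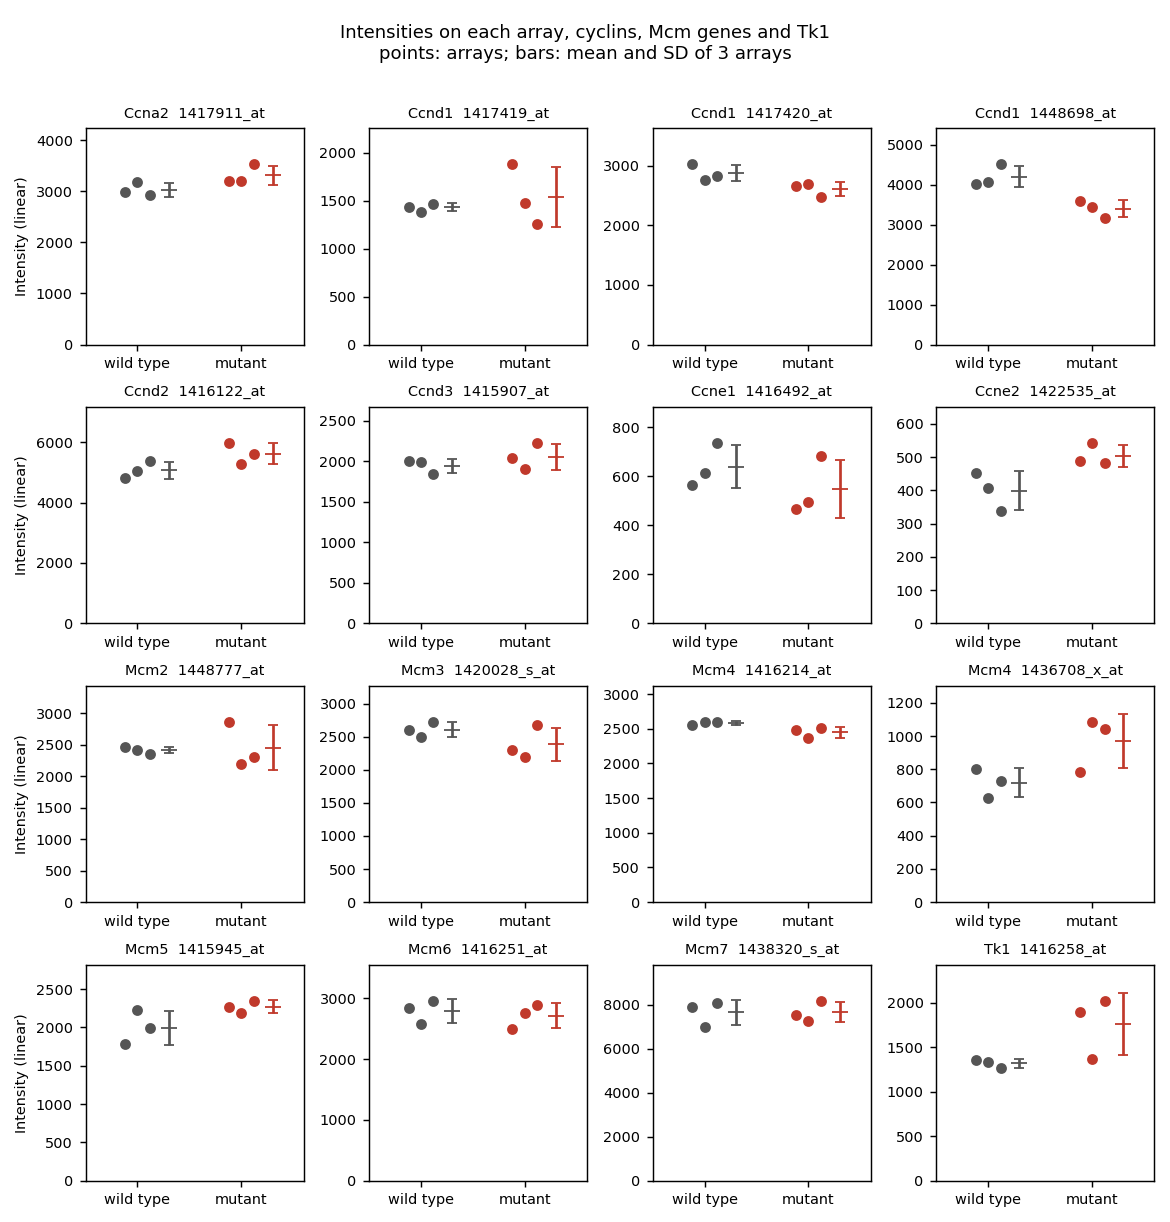
Intensity on each array (vertical axis, linear, from 0) for 16 probe sets of the cyclins, the Mcm genes and Tk1, wild type in grey and Hoxb1 mutant in red, with mean and SD of 3 arrays beside the points. The groups separate in 1448698_at of Ccnd1, where mutants lie at 3162 to 3584 and wild type at 4025 to 4506, and overlap in most other panels.

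The 4 kinase genes stood close to wild type. Their 6 probe sets had log2 differences of 0.01 to 0.16, none separated the groups, and every interval lay within 0.5 log2 units of zero. Cdk1, the mitotic kinase, which also acts in S phase, gave 3797, 3905 and 3417 on the wild-type arrays against 3857, 4088 and 4248 on the mutant ones. Cdk2 gave 1039.6, 935 and 898 on the wild-type arrays against 1144, 1045 and 1031 on the mutant ones, with the largest difference among the kinases, 0.16 (SE 0.12). The 3 probe sets of Cdk4, a partner of D-type cyclins, gave differences of 0.01, 0.07 and 0.08. The single probe set of Cdk6 was dim, at 64.4 ± 7.95 on wild-type and 64.9 ± 3.07 on mutant arrays. The bacterial control probe sets, which have no mouse target, had a 95th percentile of 61.5, and 5 of the 6 arrays lay above it for Cdk6.

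For the Cdk inhibitors of the set, which hold cells in G1, no probe set passed the test or separated the groups. Cdkn1b, p27, gave 473 ± 63.4 on wild-type and 424 ± 46.3 on mutant arrays with its brighter probe set (1434045_at), at a log2 difference of -0.15 (SE 0.15), and Cdkn2c gave 318 ± 5.84 on wild-type and 305 ± 32.3 on mutant arrays (-0.06, SE 0.12). Cdkn1a, a target of p53, gave 268 ± 43.4 on wild-type and 272 ± 24.4 on mutant arrays (0.03, SE 0.15). The second probe sets of Cdkn1a and Cdkn1b were dim, with 2 and 1 of 6 arrays above the bacterial 95th percentile, and their intervals, -0.27 to 1.09 and -0.94 to 0.49, were wide. Outside the set, Cdkn1c was lower on every mutant array (-0.20, SE 0.11). Cdkn2d had a higher mutant mean with overlapping groups (0.17, SE 0.13).

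Among the E2F and retinoblastoma-family genes the lowest difference was that of E2f1, an activator of replication genes. Its brighter probe set (1431875_a_at) gave 627, 636 and 695 on the wild-type arrays against 512, 542 and 635 on the mutant ones, with mutant replicate 3 inside the wild-type range and a log2 difference of -0.21 (SE 0.13). Its dimmer one (1417878_at) gave 184, 196 and 186 on the wild-type arrays against 39, 191 and 164 on the mutant ones. Mutant replicate 1 alone was low there, and the difference of -0.69 came with an SE of 0.48. E2f3, another activator, gave 228 ± 49.1 on wild-type and 255 ± 34 on mutant arrays (0.16, SE 0.19). Rb1, the retinoblastoma gene, gave 308 ± 52.8 on wild-type and 317 ± 25.8 on mutant arrays (0.05, SE 0.15), and its relative Rbl1 gave 642 ± 55.5 on wild-type and 606 ± 30.5 on mutant arrays with the brighter probe set (-0.08, SE 0.12).

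The licensing genes, which load the replicative helicase onto origins before S phase, showed no common direction in the reported fit. Their 21 probe sets had a median difference of 0.0048, 11 with a higher and 10 with a lower mutant mean. That split depended on the setting. Higher ones numbered 19 after centring on array medians, 10 with quantile normalization and 8 with the 18S covariate. The median of the 16 probe sets of Mcm2 to Mcm7, the helicase subunits, was -0.02, with 7 higher. After centring on array medians it was 0.04, with 14 higher. Mcm2 (1448777_at) gave 2461, 2414 and 2362 on the wild-type arrays against 2866, 2194 and 2310.2 on the mutant ones, and the mutant arrays lay on both sides of wild type. Mcm3 (1420028_s_at) gave 2606, 2499 and 2728 on the wild-type arrays against 2298, 2189 and 2673 on the mutant ones (-0.13, SE 0.12), and its other 4 probe sets ran from -0.03 to 0.13. Mcm5 gave 1778, 2222 and 1997 on the wild-type arrays against 2273, 2185 and 2351 on the mutant ones, with wild-type replicate 2 inside the mutant range and a difference of 0.19 (SE 0.12).

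The probe sets of Mcm4 disagreed. The brighter (1416214_at) gave 2556, 2599 and 2597 on the wild-type arrays against 2477, 2359 and 2509 on the mutant ones: every mutant array was lower, at a log2 difference of -0.08 (SE 0.10). The dimmer (1436708_x_at) gave 799, 629 and 731 on the wild-type arrays against 784, 1085 and 1043 on the mutant ones, a difference of 0.42 (SE 0.17) in the other direction, with mutant replicate 1 inside the wild-type range. Its unadjusted limma p was 0.0438, under 0.05 in 7 of 16 alternative settings, and its adjusted p 0.833. Leaving out wild-type replicate 2 or 3 raised the unadjusted limma p to 0.133 and 0.0791, and leaving out mutant replicate 2 or 3 raised it to 0.136 and 0.121. With the 18S covariate the difference was 0.23, at an unadjusted limma p of 0.349. The suffix x marks sets whose probes can also bind other transcripts. Other members carry it too, among them the brightest probe sets of Cdk4, Rrm2 and Fen1. Mcm6 showed the same order of probe sets on a smaller scale. Its brighter one (1416251_at) gave 2836, 2580.1 and 2965 on the wild-type arrays against 2492, 2767 and 2897 on the mutant ones, a difference of -0.04, and its other, 1438852_x_at, 0.21 (SE 0.14). Mcm7 (1438320_s_at) gave 7871, 7005 and 8056 on the wild-type arrays against 7538, 7273 and 8183 on the mutant ones, and its 4 probe sets ran from -0.05 to 0.0048. One of these, 1416031_s_at, separated the groups by a small margin, at 2696, 2697 and 2815 on the wild-type arrays against 2622, 2682 and 2649.5 on the mutant ones.

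The remaining licensing genes did not separate the groups. Cdc6, which helps to load the helicase, gave 672, 507 and 502 on the wild-type arrays against 529.7, 595 and 759 on the mutant ones, with wild-type replicate 1 and mutant replicate 3 above the other 4 arrays. Cdt1, its partner, gave 2177 ± 72.6 on wild-type and 2105 ± 123 on mutant arrays with its brightest probe set (-0.05, SE 0.11). Gmnn, geminin, which blocks Cdt1 once replication has begun, gave 1959 ± 55.9 on wild-type and 2091 ± 326 on mutant arrays (0.08, SE 0.14). Another probe set of Cdt1 (1455791_at) lay below 5 on every array and gives no level.

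The genes that supply nucleotides held the largest difference among the brightest probe sets. Tk1, thymidine kinase, gave 1360.3, 1338 and 1265 on the wild-type arrays against 1892, 1371 and 2024 on the mutant ones. Every mutant array was higher, but mutant replicate 2 only by 10.3 over wild-type replicate 1, and the log2 difference of 0.39 (SE 0.17) had a 95% interval of -0.0069 to 0.79. Its adjusted limma p was 0.833. Rrm1, the large subunit of ribonucleotide reductase, gave 3847, 3865 and 3266 on the wild-type arrays against 4633, 4449.9 and 4255 on the mutant ones with its brighter probe set (1415878_at), without overlap (0.28, SE 0.12, interval -0.0023 to 0.57). The other probe set of Rrm1 overlapped, at 0.13 (SE 0.16). Rrm2, the small subunit, had differences in its 3 probe sets between -0.06 and 0.0021. Tyms, thymidylate synthase, was not well above background: at most 3 of 6 arrays of any of its 3 probe sets passed the bacterial 95th percentile, and its intervals reached from -0.68 to 1.05.

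Genes of the replication fork had a higher mutant mean in 8 of 9 probe sets, with a median of 0.11, against 45.8% of all probe sets tested. The count was 7 with quantile normalization (median 0.10) and with the 18S covariate (median 0.08). It was 6 without both wild-type arrays of high 18S signal. Pcna, the sliding clamp, gave 10188, 9989 and 9281 on the wild-type arrays against 10439, 10764 and 11014 on the mutant ones, and every mutant array was higher at a log2 difference of 0.13 (SE 0.11). Pola1, the catalytic subunit of polymerase alpha, gave 574, 481 and 535 on the wild-type arrays against 628, 594 and 637 on the mutant ones, also without overlap (0.22, SE 0.12). Prim1, the primase subunit that starts each new strand, gave 1615, 1565 and 1585 on the wild-type arrays against 1642, 1764 and 1735 on the mutant ones with its brighter probe set (0.11, SE 0.10), and 0.27 (SE 0.16) with its other one, where the groups overlapped. Rfc4, a subunit of the clamp loader, had 0.21 (SE 0.13) and 0.11 (SE 0.11). Fen1, the flap endonuclease, had 0.02 and 0.09. Lig1, the ligase that seals the new strands, was the fork gene with a lower mutant mean, at 2029 ± 55.1 on wild-type and 1823 ± 166 on mutant arrays (-0.16, SE 0.12).

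The proliferation markers had higher mutant means in the 2 probe sets above background, and neither passed the test. Mki67, present in cycling cells, gave 2573, 2508 and 2792 on the wild-type arrays against 2753, 3259 and 2858 on the mutant ones, with mutant replicate 1 inside the wild-type range (0.17, SE 0.12). Top2a, which untangles replicated DNA, gave 5207, 4482 and 5140.5 on the wild-type arrays against 5438, 5320.5 and 5259 on the mutant ones, without overlap but with a difference of 0.11 (SE 0.11). Its second probe set (1427724_at) stayed below 8 on every array and gives no level.

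**Figure D4:**
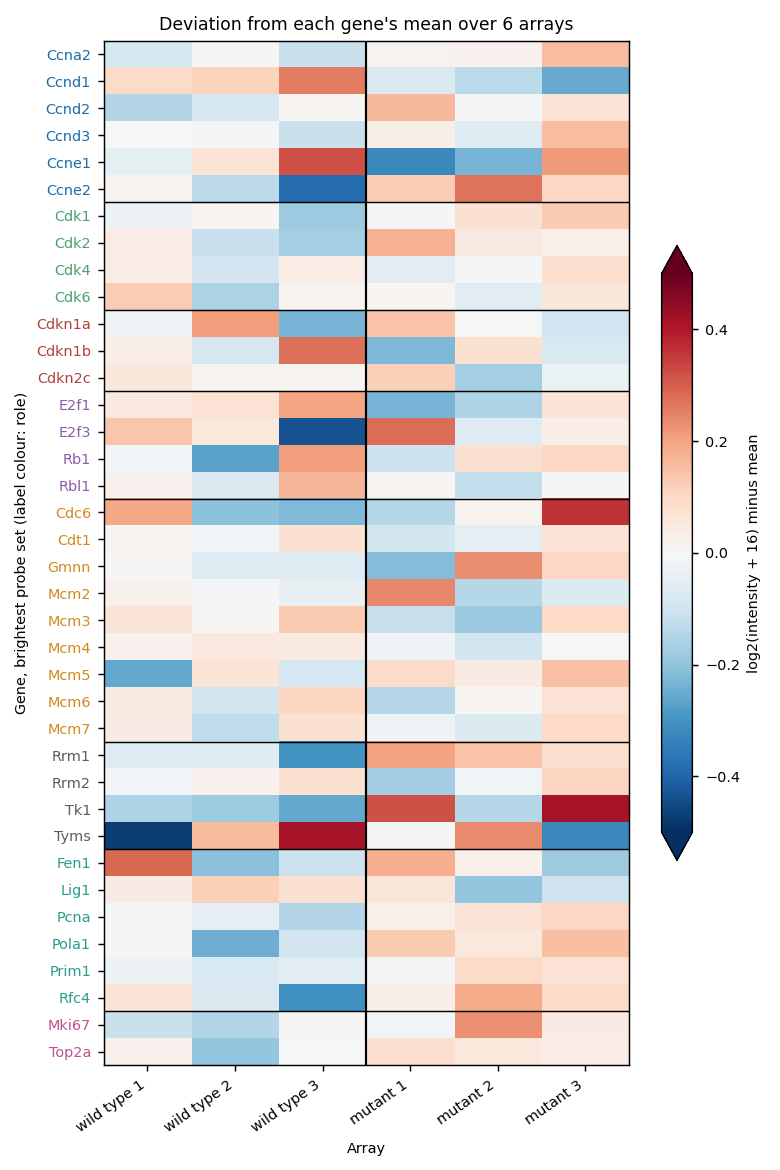
Deviation of log2(intensity + 16) from each gene's mean over the 6 arrays (colour), for the brightest probe set of the 38 genes (rows, label colour by role) on each array (columns). No array is raised or lowered across all rows; Ccnd1 is among the genes lower on all 3 mutant arrays, and Ccne2, Rrm1 and Pola1 are among those higher, while Tk1 is above its mean on mutant replicates 1 and 3 and below it on mutant replicate 2.

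Several of these genes have more than 1 probe set, and these often differed in sign. Of the 21 such genes, the probe sets of 10 had 1 sign throughout and those of 11 had both. The largest spans between probe sets of 1 gene were those of Mcm4, E2f1 and Ccnd1, at 0.49, 0.48 and 0.39 log2 units. Across arrays the set moved little as a whole. Its median deviation from the mean of each probe set lay between -0.05 in wild-type replicate 2 and 0.07 in mutant replicate 3, and the other 4 arrays were within 0.01 of zero.

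Other genes of the G1/S transition and of replication, a list of 90 of which 73 were measured by 128 probe sets, had higher mutant means in 82 of them. At an unadjusted limma p under 0.05, 0 were higher and 2 lower in mutants, with the same shares over all probe sets as above, and the median difference was 0.05. E2f4, which acts mainly as a repressor in G1, gave 423, 507 and 479.8 on the wild-type arrays against 328, 352 and 352 on the mutant ones. All mutant arrays were lower, at a log2 difference of -0.43 (SE 0.12) with a 95% interval of -0.71 to -0.15 and an adjusted limma p of 0.783. Dut, which removes dUTP, gave 257, 266 and 295 on the wild-type arrays against 214, 221 and 222 on the mutant ones (-0.29, SE 0.11), while its brighter probe set overlapped at 0.04 (SE 0.15). Among probe sets with a mean above the bacterial 95th percentile, the next 4 genes by p had higher means in mutants. Nasp, a histone chaperone, had 0.36 (SE 0.15), Rpa1, a single-strand DNA binding protein, 0.22 (SE 0.10), Cdc45, a part of the active helicase, 0.27 (SE 0.13), and Ccnh, cyclin H of the Cdk-activating kinase, 0.25 (SE 0.13). Mitotic genes, 25 measured of 28, had a median of 0.03 over 43 probe sets, with 3 higher and 0 lower at an unadjusted limma p under 0.05. Of those 3, 2 belong to Pttg1, securin, the inhibitor of separase, and 1 to a dim probe set of Bub3. The brightest Pttg1 probe set gave 3697, 3462 and 3642 on the wild-type arrays against 5898, 6016 and 6230.5 on the mutant ones, a difference of 0.75 (SE 0.10) with every mutant array higher and an adjusted limma p of 0.345, and the dimmest one had -0.25 (SE 0.25).

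The arrays and the tissue behind these values were checked. Hoxb1, the targeted gene, gave 341, 378 and 588 in wild type and at most 60.8 in mutants, below the bacterial 95th percentile. Its log2 difference of -2.78 (SE 0.24) had an adjusted limma p of 0.0695, above the threshold of 0.05. The sources used here do not say whether its probe set lies in the part that the mutation removes or alters. Precision is limited by the number of arrays, whose median intensity lay between 187 and 214. Wild-type replicates 2 and 3 stood apart in the 18S rRNA controls, whose mean log2 signal was 12.1 and 11.3 there and 6.36 to 7.03 elsewhere. With that signal as a covariate, 0 member probe sets had an unadjusted limma p under 0.05 in either direction, and the median difference of the set was 0.04. Markers of the labelled tissue were present: 10 of 10 markers of neurons, 8 of 9 of neural progenitors and 8 of 8 of mesenchyme lay above the bacterial 95th percentile on all arrays. Neuron markers had a lower mutant mean in 8 of 10 genes, with summed intensities of 16981 to 19928 in wild type and 14148 to 18119 in mutants. Progenitor markers were lower in 7 of 9 and higher in 2, with sums of 20672 to 21975 and 19397 to 20308. The lowest difference among their brightest probe sets was that of Sox3, at -0.76 (SE 0.20) and an adjusted limma p of 0.740. Its other probe set had -0.36 (SE 0.13), and both separated the groups. Mesenchyme markers were lower in 6 of 8, with sums of 12059 to 12645 and 11210.5 to 11504. Beside Hoxb1, the markers Hoxa2, Hoxb2 and Egr2 of rhombomere 4 and its neighbours had differences of -0.0045, -0.26 and -0.04, that of Egr2 from a dim probe set. Markers were lower in 5 of 5 genes for endothelium and 4 of 5 for macrophages, whereas 3 of 5 erythroid and 3 of 4 surface epithelium markers were higher. No array had the macrophage marker C1qa above the bacterial 95th percentile. The sums of progenitor, mesenchyme and endothelium markers separated the groups, as did that of the rhombomere 4 markers, which holds Hoxb1 itself, and those of the other lists overlapped; the progenitor sum is mostly Vim, and their part in the cell-cycle values was not tested.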

How the data were processed

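Affymetrix 430A arrays of 3 wild-type and 3 Hoxb1 mutant samples were analysed. The authors deposited 1 linear intensity per probe set and array, scaled so that the mean with 2% trimmed at each end was 500 on every array, as the values show. Per the submitters' processing notes the tool was affy; the expression algorithm and any background correction were not given in the sources used here.

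Probe sets were named from the platform annotation where it lists 1 gene (20380 of 22626). Affymetrix controls, 64 in number, were left out, and 27 bacterial ones served as background. Values of log2(intensity + 16) entered a model of both groups in limma 3.58.1 (lmFit, then eBayes, under R 4.3.3; 6 arrays, no covariate, 2-sided p), and p-values were Benjamini-Hochberg adjusted over the 22626 probe sets. The step was tested on simulated data with planted changes larger than any member difference, which does not show how well smaller changes are found. Intervals are 95% intervals of the moderated fit.

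The members and lists were chosen with earlier results of these data known. Array values are given for probe sets at an unadjusted p under 0.05, for separated ones with a difference of at least 0.3, for further probe sets of those genes, and for the brightest probe set of each cyclin and Mcm gene. Of the list of 90 genes, the 6 of smallest p above background are named, and Cdkn1c and Cdkn2d were added with their values in view. Pttg1, Sox3 and the array values of other members were picked with their values in view. Alternatives were quantile normalization, array medians, a filter on the dimmest 33.3%, other limma settings, pseudocounts of 1 and 64, the 18S signal, the replicate number and leaving out arrays.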

Additional observations from a re-analysis of the deposited data

How the results depend on the processing

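The median difference of the 74 probe sets stayed above zero in all 17 alternatives, between 0.03 and 0.11, and moved beyond the spread between arrays in 1, centring on array medians (0.11). Without each array in turn it ran from 0.04 to 0.07. Trend and robust settings and the replicate block leave every fitted difference as it is, so those alternatives could not move it. No member passed an adjusted p of 0.05 under any of 16 alternatives, where the lowest adjusted limma p of a member ran from 0.508 to 1. Over the whole array, 3 probe sets passed with quantile normalization and with trend and robust settings, 4 with centring on array medians and with array weights, 2 without the dimmest 33.3%, and 0 without each array in turn. Member probe sets higher in mutants at an unadjusted p under 0.05 numbered 1 in the reported fit, 2 with quantile normalization, 3 with centring, 4 without the dimmest 33.3%, with array weights and with a pseudocount of 64, 5 with trend and robust settings, and 0 with a pseudocount of 1, with the replicate block, with the 18S covariate and without both wild-type arrays of high 18S signal, where the lone wild-type array is assumed to vary like the mutants. Counts over all probe sets also moved with the setting, as given above for quantile normalization and centring, so the member counts are not read alone. Without each array in turn, member probe sets higher in mutants numbered 0 to 2. Those lower numbered 0 with centring, the replicate block, the 18S covariate and without both of those arrays, and 0 to 2 without each array in turn, where 0 came without each wild-type array and without mutant replicates 2 and 3. The replicate number served as a block only as a check. The deviations of equal numbers correlated at 0.05, -0.02 and 0.04, and the samples share only a number. With the block the median difference for the set was 0.06, which a block cannot move in a balanced design. Of 256 values of the 16 probe sets with array values under alternatives, 242 kept their sign. These include the values under trend and robust settings and under the block, which could not turn. The 14 that turned belong to 4 probe sets. Mcm2 gave -0.012 with quantile normalization, -0.069 with array weights, -0.012 without both wild-type arrays of high 18S signal, and -0.099 to 0.093 without each array in turn. Mcm7 gave -0.031 with quantile normalization, -0.011 with array weights, -0.051 with the 18S covariate, -0.040 without both of those arrays, and -0.057 to 0.044 without each array in turn. Mcm6 gave 0.014 with centring and -0.095 to 0.022 without each array in turn. Ccnd1 1417419_at gave -0.070 to 0.22 without each array in turn. The cause of these shifts was not tested. Signal over background limits Tyms, Cdk6 and the second probe sets of Cdkn1a and Cdkn1b.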

Other observations

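Cyclin D1 and cyclin D2 lay on opposite sides of wild type in their brightest probe sets; this pair was picked with the values in view and is described without a test. For the brightest probe set of each, the log2 ratio of Ccnd1 to Ccnd2 changed by -0.45 from wild type to mutant, with an SD of 0.03 over wild-type and 0.10 over mutant arrays, and it was lower on every mutant array than on every wild-type array. Of the 21 pairs of a Ccnd1 with a Ccnd2 probe set, 19 had a lower ratio in mutants, and 7 separated all arrays. The pairs share probe sets and arrays, so they are not independent. All 7 Ccnd2 probe sets had a higher and 2 of 3 Ccnd1 probe sets a lower mutant mean, which fixes the sign of their pairs. These counts therefore add no support, and pairs of other genes were not counted. Without wild-type replicate 1, only 4 of the 7 Ccnd2 probe sets were higher, with a median of 0.0092. Those with the Ccnd1 probe set 1417419_at ran from -0.22 to 0.04.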
